A study of Mus musculus with 12 samples.

Results

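The genes Ankrd1, Ankrd2, Ankrd23, Xirp1, Xirp2, Csrp3, Fhl1, Fhl2 and Nes encode proteins of the cardiac Z-disc, of its titin anchorage and of the filament systems attached to it, and are grouped as stress sensors of the muscle cell. They were chosen by name and make up 9 of the 20021 genes with a named probe on the array. Ankrd23 is read by 2 probes and each of the others by 1, and all 10 probes were bright enough to be tested, among 30415 probes and 16697 named genes tested in all. Left ventricular total RNA of C57/Bl6 mice was measured on 12 single-colour Agilent whole-genome arrays, 3 for each of 4 groups. The groups were CnAb1 transgenic overexpressing hearts after TAC, CnAb1 transgenic overexpressing hearts after sham surgery, wild-type hearts after TAC and wild-type hearts after sham surgery, all taken 21 days after surgery. One time label reads 0 for sham hearts, but the other labels state day 21, which was taken here. TAC, transverse aortic constriction, narrows the aorta so that the left ventricle pumps against a raised pressure, and CnAb1 is a splice variant of the catalytic subunit of the phosphatase calcineurin. The promoter and the cell type that drive the transgene, and the age of the mice, are not given in the sources used here.

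Titin spans the sarcomere and is anchored in the Z-disc, where it carries passive tension. The muscle ankyrin repeat proteins bind the spring region of titin and also enter the nucleus, the four-and-a-half LIM proteins and the muscle LIM protein link titin, the Z-disc and signalling enzymes, and the Xin repeat proteins bind actin at the intercalated disc. Several of these genes are known as strain-induced genes of the loaded heart, and Ankrd1 in particular is widely used as a marker of pressure overload.

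Levels are given on the log2 scale relative to the 75th percentile of each array, so 0 is the signal of a probe at that percentile, and levels of different probes are not set against each other. The percentile itself differed with the groups: on the log2 scale it was 8.97 to 9.24 on wild-type sham arrays and 9.48 to 9.95 on all others. It was highest on wild-type TAC arrays, 9.88 to 9.95. A probe with equal signal on all arrays before scaling would thus read highest in wild-type sham hearts. The part of this scaling in single differences was not tested. Differences are log2 differences between group means with standard errors from limma, tested two-sided over all 30415 probes with Benjamini-Hochberg adjustment and a threshold of 0.05. Probes well above background were 37.3% of those on the second transgenic sham array, against 60.5% to 78.3% on the other 11 arrays, and its negative controls read 48.6 signal units against 15.4 to 21.0 elsewhere. The arrays lay on 5 slides, and slide and group overlapped only in part, so differences within a slide are given beside the main results. All 12 cardiomyocyte markers checked were well above background on all 12 arrays. The array's probe for Ppp3cb, the gene that encodes CnAb1, differed between transgenic and wild-type hearts by -0.28 ± 0.10 after sham (adjusted p = 0.177) and by 0.14 ± 0.10 after TAC (adjusted p = 0.421), and since it is not known to read the transgene it checks no label. The labels do not say that the arrays of a group came from separate animals, so p-values measure the spread between these arrays, which may be technical. Values listed below for the hearts of a group are the values of its arrays. In whole tissue, fewer cells of a type and less RNA per cell cannot be told apart.

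The promoters of the 6 members that changed after TAC in wild-type hearts are shown first, because the windows show which known muscle motifs lie near their starts. RefSeq windows (GRCm38.p6, 250 bases before to 50 after the start) were found for 8 of the 9 members, all but Xirp1, and 1 window per gene is printed 5′ to 3′ on the gene's own strand. Capitals mark an MCAT element (CATTCC, the site bound by TEAD factors), a CArG box (the site of serum response factor), a MEF2 box and TATAAA, each searched on both strands and in this order, with no overlap between them.
Ankrd1, chr19:36119795-36120094, minus strand: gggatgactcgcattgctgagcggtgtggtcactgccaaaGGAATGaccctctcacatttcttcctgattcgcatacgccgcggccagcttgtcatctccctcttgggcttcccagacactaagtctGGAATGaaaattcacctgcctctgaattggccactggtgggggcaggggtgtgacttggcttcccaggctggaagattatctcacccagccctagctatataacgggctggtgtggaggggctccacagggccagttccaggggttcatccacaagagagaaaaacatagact
Ankrd2, chr19:42035777-42036076, plus strand: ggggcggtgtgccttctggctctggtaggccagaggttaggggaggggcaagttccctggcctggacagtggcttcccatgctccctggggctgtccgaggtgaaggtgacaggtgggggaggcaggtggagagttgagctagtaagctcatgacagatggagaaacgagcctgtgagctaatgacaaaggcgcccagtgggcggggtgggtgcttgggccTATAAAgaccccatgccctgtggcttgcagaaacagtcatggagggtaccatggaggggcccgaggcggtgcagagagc
Ankrd23, chr1:36535690-36535989, minus strand: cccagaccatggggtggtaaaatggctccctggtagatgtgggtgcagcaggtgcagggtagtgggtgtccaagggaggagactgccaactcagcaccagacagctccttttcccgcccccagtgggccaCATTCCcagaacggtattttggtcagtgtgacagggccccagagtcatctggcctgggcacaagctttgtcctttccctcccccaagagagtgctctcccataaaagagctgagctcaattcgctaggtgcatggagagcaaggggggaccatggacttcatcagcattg
Xirp2, chr2:67445752-67446051, plus strand: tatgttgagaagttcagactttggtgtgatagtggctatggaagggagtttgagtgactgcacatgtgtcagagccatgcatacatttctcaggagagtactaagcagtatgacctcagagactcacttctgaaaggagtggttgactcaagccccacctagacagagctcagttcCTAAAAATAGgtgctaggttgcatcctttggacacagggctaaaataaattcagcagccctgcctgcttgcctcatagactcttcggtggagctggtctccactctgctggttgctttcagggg
Fhl1, chrX:56779433-56779732, plus strand: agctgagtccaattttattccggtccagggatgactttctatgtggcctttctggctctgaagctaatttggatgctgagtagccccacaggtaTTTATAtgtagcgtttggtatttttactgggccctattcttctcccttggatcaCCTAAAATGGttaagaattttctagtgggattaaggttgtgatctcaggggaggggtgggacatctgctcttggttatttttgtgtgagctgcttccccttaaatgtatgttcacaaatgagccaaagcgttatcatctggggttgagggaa
Fhl2, chr1:43163912-43164211, minus strand: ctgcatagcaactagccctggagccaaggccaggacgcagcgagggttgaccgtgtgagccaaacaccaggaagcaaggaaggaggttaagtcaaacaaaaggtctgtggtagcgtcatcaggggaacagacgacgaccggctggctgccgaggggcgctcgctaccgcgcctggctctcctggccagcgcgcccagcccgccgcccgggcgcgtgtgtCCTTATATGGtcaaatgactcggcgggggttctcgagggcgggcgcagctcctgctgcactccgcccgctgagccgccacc
Ankrd1 held 2 MCAT elements, 210 and 123 bases before its start, and the Ankrd23 window shown held 1, 120 bases before its start. MCAT elements were present in 14.7% of the 32851 RefSeq promoter windows of the mouse. CArG boxes lay 102 bases before the start in the Fhl1 window shown and 31 bases before it in the Fhl2 window shown. A second annotated Fhl2 start had one 96 bases upstream, while a second annotated Fhl1 window, not printed, held no CArG box and no TATAAA. Of all windows, 1.63% held a CArG box. Xirp2 alone among the members had a MEF2 box, 74 bases before its start (0.557% of all windows), and an AP-1 site, TGANTCA, 107 bases before it (7.81% of all windows). TATAAA was found 29 bases before the Ankrd2 start, 156 bases before the Fhl1 start shown and 28 bases before the second Fhl2 start. It was in 13.6% of all windows. The core letters of the calcineurin-dependent factor NFAT, GGAAA, occurred in 61.3% of all windows. Among the 6 printed here they were only in that of Ankrd23, at 141 and 48 bases before the start. The second windows of Ankrd23 and Fhl1, not printed, also held them. E-boxes, CANNTG, were in 72.3% of all windows and in each of the 6 printed here. These matches describe letters and no binding was measured.

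In wild-type hearts Ankrd1, Ankrd2, Ankrd23, Xirp2 and Fhl1 rose after TAC, by 1.97-fold to 3.32-fold, and Fhl2 fell, while Xirp1, Csrp3 and Nes did not pass the test. Of the 9 members 5 rose and 1 fell, and over all probes tested 8.55% rose and 12.4% fell, which is 20.9% in either direction. The members' median difference was 0.97, against -0.12 over all probes tested. With slide as a fixed block Ankrd1 alone of the 6 kept its call (adjusted p = 0.0473), the adjusted p of the other 5 being 0.0571 to 0.0835. In transgenic hearts 0 of the 9 members passed the test, in a comparison in which 0 of the 30415 probes did (0% of all probes), and the members' median difference was 0.28. Before adjustment 1897 probes and 3 members had p under 0.05 in limma in transgenic hearts.

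**Figure D1:**
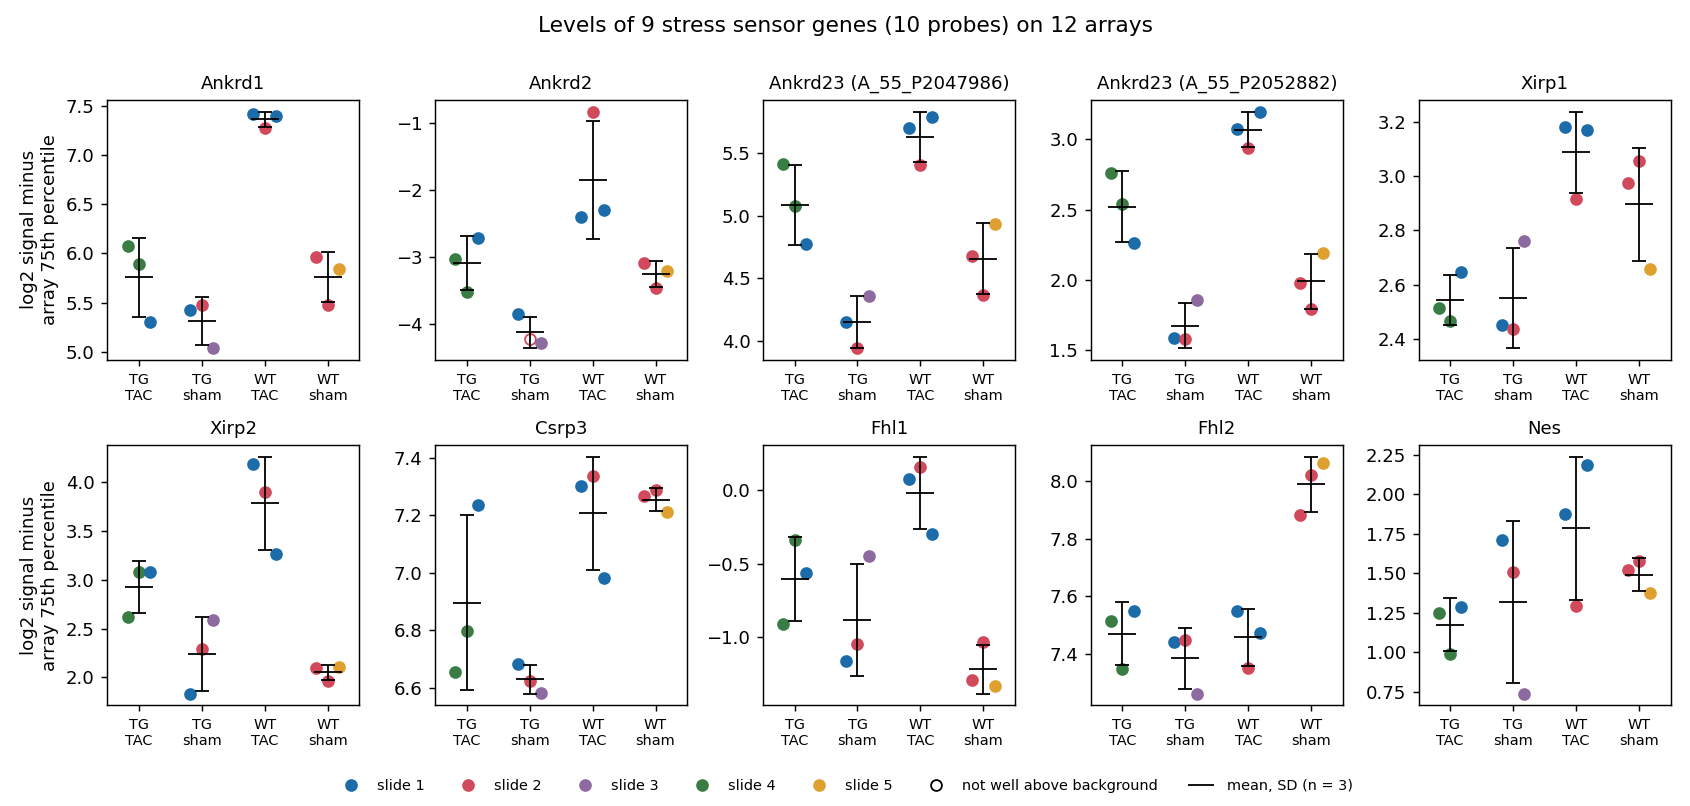
Log2 level of each member's probes relative to the array's 75th percentile, by group, with a point for each array and the mean and SD of 3 arrays as bars. Ankrd1 in wild-type TAC hearts sits at 7.27 to 7.41, above every other array, and Fhl2 in wild-type sham hearts sits at 7.88 to 8.06, above every other array.

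Ankrd1, also called cardiac ankyrin repeat protein, binds the spring region of titin and acts as a transcriptional cofactor. Its level was 6.07, 5.89 and 5.31 on the 3 transgenic TAC arrays and 5.43, 5.48 and 5.04 on the transgenic sham arrays. On wild-type arrays it was 7.41, 7.27 and 7.40 after TAC and 5.96, 5.48 and 5.84 after sham. The wild-type TAC hearts stood clear of all 9 other arrays, whereas the transgenic TAC hearts overlapped both sham groups. Ankrd1 rose 3.03-fold after TAC in wild-type hearts (1.60 ± 0.21 on the log2 scale, adjusted p = 0.002), with 1.55 within the slide that held both groups. After TAC in transgenic hearts its difference was 0.44 ± 0.21 (95% interval -0.04 to 0.92, adjusted p = 0.795), and it was -0.13 in the pair of arrays on a shared slide. Compared with wild-type TAC hearts, transgenic TAC hearts had 3.04-fold less Ankrd1 (-1.60 ± 0.21, adjusted p = 0.00682), and the difference was -2.10 within their shared slide. The call was lost in a fit on the compared groups alone and with slide as a fixed block (adjusted p up to 0.0769). Their mean of 5.76 ± 0.40 was close to the 5.76 ± 0.25 of wild-type sham hearts (SD, n = 3 each).

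Ankrd2 is the family member best known from slow skeletal muscle, where it too binds titin and responds to stretch. Its levels were -3.03, -3.51 and -2.71 in transgenic TAC hearts, -3.85, -4.22 and -4.28 in transgenic sham hearts, -2.40, -0.83 and -2.30 in wild-type TAC hearts and -3.08, -3.46 and -3.21 in wild-type sham hearts. TAC hearts lay above sham hearts without overlap in both genotypes. The second wild-type TAC array stood well above the others, while the second transgenic sham array was not well above background. In wild-type hearts Ankrd2 rose 2.65-fold (1.41 ± 0.38, adjusted p = 0.0283), and the difference was 0.90 without the second wild-type TAC array and 2.44 within the shared slide, which holds that array. The call was lost when any of the 3 wild-type sham arrays was left out, and under quantile normalization, normexp background correction, a fit on the compared groups alone, slide as a fixed block and the replicate block (adjusted p up to 0.315). In transgenic hearts the difference was 1.03 ± 0.38 (adjusted p = 0.792), and 1.14 within the shared slide. Skeletal muscle markers, 8 of 10 bright enough to test, summed to 7.51 to 9.95 in transgenic TAC, 7.08 to 10.4 in transgenic sham, 5.99 to 6.80 in wild-type TAC and 13.1 to 15.7 in wild-type sham hearts, in units of each array's 75th percentile. After TAC in wild-type hearts 2 of the 8 fell, against 12.4% of all probes, and 3 lay above 0. The sum was mostly Atp2a1, and the part of skeletal muscle in the Ankrd2 values was not tested.

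Ankrd23, or diabetes-related ankyrin repeat protein, is the third titin-binding ankyrin gene. Its brighter probe read 5.42, 5.08 and 4.78 in transgenic TAC hearts, 4.15, 3.94 and 4.36 in transgenic sham hearts, 5.70, 5.41 and 5.79 in wild-type TAC hearts and 4.68, 4.36 and 4.93 in wild-type sham hearts. TAC hearts were above sham hearts without overlap in each genotype, and the sizes of the differences were close. They were 0.94 ± 0.21 in transgenic hearts (adjusted p = 0.742, 95% interval 0.48 to 1.40) and 0.97 ± 0.21 in wild-type hearts (adjusted p = 0.0103). The second probe gave 0.85 ± 0.16 in transgenic hearts (adjusted p = 0.715) and 1.08 ± 0.16 in wild-type hearts (adjusted p = 0.00285). Both probes passed in wild-type hearts and neither in transgenic hearts, but the test of the difference between the genotypes' responses gave -0.04 (95% interval -0.69 to 0.62, adjusted p = 0.956) for the brighter probe and -0.23 (95% interval -0.74 to 0.27, adjusted p = 0.568) for the second. Within shared slides the brighter probe differed by 0.63 in transgenic hearts and 0.89 in wild-type hearts.

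**Figure D2:**
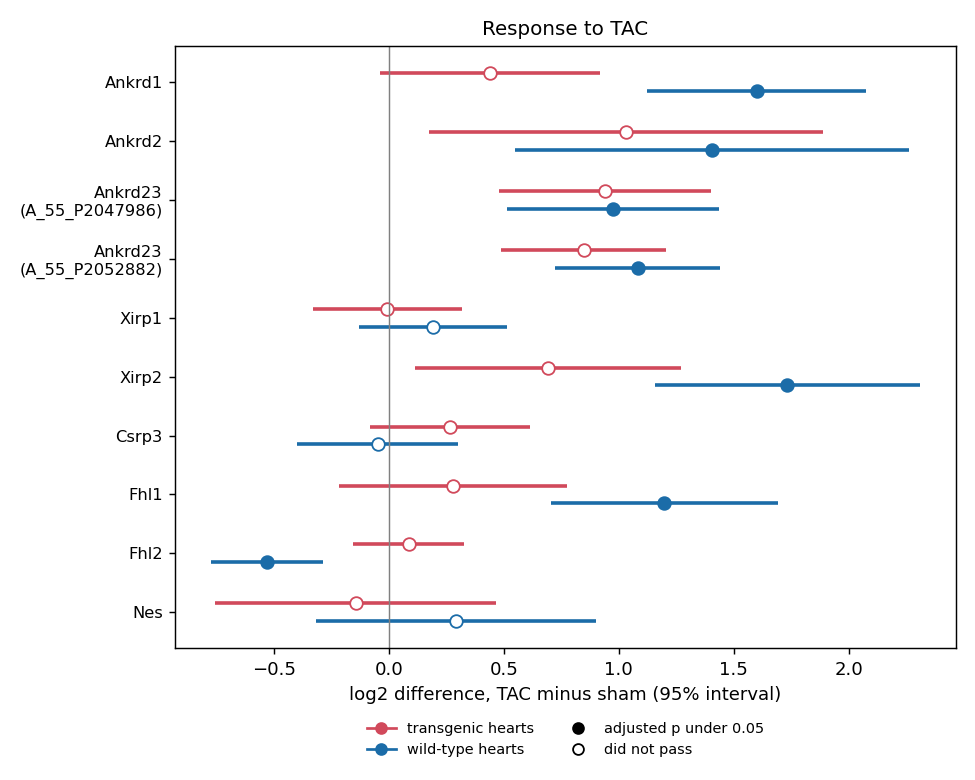
Log2 difference of TAC minus sham hearts for each member's probes in transgenic and wild-type hearts, with 95% intervals. Filled points have an adjusted p under 0.05, which holds for 5 members that rose and 1 that fell in wild-type hearts and for 0 in transgenic hearts.

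Of the Xin repeat genes, Xirp2 rose in wild-type hearts and Xirp1 did not pass the test. Xirp2, which encodes an actin-binding Xin protein of the intercalated disc and Z-disc region, read 2.62, 3.08 and 3.08 in transgenic TAC hearts, 1.83, 2.29 and 2.59 in transgenic sham hearts, 4.19, 3.90 and 3.26 in wild-type TAC hearts and 2.09, 1.96 and 2.10 in wild-type sham hearts. TAC hearts were higher than sham hearts without overlap in both genotypes, and the transgenic TAC hearts all lay below the wild-type TAC hearts. Xirp2 rose 3.32-fold in wild-type hearts (1.73 ± 0.26, adjusted p = 0.00286), the largest rise among the members, and by 1.88 within the shared slide. In transgenic hearts its difference was 0.69 ± 0.26 (adjusted p = 0.792), and 1.25 within the shared slide. Xirp1, the other Xin gene, read 2.52, 2.47 and 2.65 in transgenic TAC hearts, 2.45, 2.44 and 2.76 in transgenic sham hearts, 3.18, 2.92 and 3.17 in wild-type TAC hearts and 2.97, 3.05 and 2.66 in wild-type sham hearts. For Xirp1 the surgeries overlapped in both genotypes. Its differences after TAC were -0.01 ± 0.14 in transgenic hearts (adjusted p = 0.992) and 0.19 ± 0.14 in wild-type hearts (adjusted p = 0.402), and both signs turned within shared slides, to 0.19 in transgenic hearts and -0.10 in wild-type hearts.

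Among the LIM genes, Fhl1 and Fhl2 changed in opposite directions in wild-type hearts. Fhl1 encodes a LIM protein that binds titin's cardiac spring element and takes part in load signalling. Its levels were -0.91, -0.34 and -0.56 in transgenic TAC hearts, -1.16, -1.04 and -0.45 in transgenic sham hearts, 0.08, 0.16 and -0.30 in wild-type TAC hearts and -1.30, -1.03 and -1.33 in wild-type sham hearts. The transgenic groups overlapped, and the wild-type TAC hearts were above every other array. Fhl1 rose 2.29-fold after TAC in wild-type hearts (1.20 ± 0.22, adjusted p = 0.00598), with 1.32 within the shared slide. Its difference was 0.28 ± 0.22 in transgenic hearts (adjusted p = 0.819), and 0.60 within the shared slide. Fhl2 binds the same region of titin and docks metabolic enzymes there. It read 7.52, 7.35 and 7.55 in transgenic TAC hearts, 7.44, 7.45 and 7.26 in transgenic sham hearts, 7.55, 7.35 and 7.47 in wild-type TAC hearts and 7.88, 8.02 and 8.06 in wild-type sham hearts. On this scale the wild-type sham hearts stood apart, above the other 9 arrays. Theirs are also the arrays with the lowest subtracted percentile. Fhl2 fell 1.44-fold after TAC in wild-type hearts (-0.53 ± 0.11, adjusted p = 0.00897), with -0.60 within the shared slide, while under quantile normalization the difference was 0.011 (adjusted p = 0.971) and normexp also ended the call. Its difference was 0.09 ± 0.11 in transgenic hearts (95% interval -0.16 to 0.33, adjusted p = 0.877), and 0.11 within the shared slide.

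Csrp3 encodes muscle LIM protein, a Z-disc protein whose loss causes dilated hearts in mice. It read 6.66, 6.80 and 7.24 in transgenic TAC hearts, 6.68, 6.63 and 6.58 in transgenic sham hearts, 7.30, 7.34 and 6.98 in wild-type TAC hearts and 7.27, 7.29 and 7.21 in wild-type sham hearts. TAC and sham hearts overlapped in each genotype, and transgenic sham hearts lay below all wild-type sham hearts. The differences after TAC were 0.27 ± 0.16 in transgenic hearts (95% interval -0.08 to 0.62, adjusted p = 0.80) and -0.05 ± 0.16 in wild-type hearts (95% interval -0.40 to 0.30, adjusted p = 0.873). Within shared slides they were 0.56 in transgenic hearts and 0.06 in wild-type hearts. Nes encodes nestin, an intermediate filament protein found in developing muscle, nerve and vessel cells. Its levels were 1.25, 0.99 and 1.29 in transgenic TAC hearts, 1.71, 1.51 and 0.74 in transgenic sham hearts, 1.87, 1.30 and 2.18 in wild-type TAC hearts and 1.52, 1.58 and 1.38 in wild-type sham hearts. The surgeries overlapped in both genotypes and the spread was wide in transgenic sham and wild-type TAC hearts. Nes differed by -0.14 ± 0.27 in transgenic hearts (adjusted p = 0.916) and by 0.29 ± 0.27 in wild-type hearts (adjusted p = 0.513). Within shared slides the Nes differences were -0.42 in transgenic hearts and -0.25 in wild-type hearts, the wild-type one with its sign turned. Summed endothelial markers, which share vessel cells with Nes, were 51.8 to 54.7 in transgenic TAC, 48.0 to 53.9 in transgenic sham, 59.3 to 71.3 in wild-type TAC and 45.1 to 55.1 in wild-type sham hearts. Of the 10 endothelial markers 5 rose and 1 fell after TAC in wild-type hearts (median 0.54), where 8.55% of all probes rose and 12.4% fell. The part of these markers in the Nes values was not tested.

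Groups of TAC and sham hearts did not overlap for 3 of 9 members in transgenic hearts (Ankrd2, Ankrd23 and Xirp2), and for 6 of 9 in wild-type hearts. Over all probes the share without overlap in transgenic hearts was 8.64%, of which 4.63% of all probes lay higher and 4.01% lower after TAC, and the 3 members were all higher. In wild-type hearts that share was 46.7%, with 17.5% higher and 29.3% lower, and of the 6 members 5 were higher and 1 lower.

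Between genotypes after sham surgery, Fhl2 was the only one of the 9 members that passed the test, in a comparison in which 1.22% of all probes were called, 0.635% higher and 0.585% lower. It was 1.52-fold lower in transgenic sham hearts, at 7.38 ± 0.11, than in wild-type sham hearts, at 7.99 ± 0.09 (SD, n = 3 each), with a difference of -0.60 ± 0.11 (adjusted p = 0.0359) and -0.50 within the shared slide. The call depended on single arrays: it was lost without transgenic sham 2 or 3, transgenic TAC 1 or 3, wild-type TAC 1 or any of the wild-type sham arrays, with adjusted p up to 0.136. Csrp3 differed by -0.63 ± 0.16 (adjusted p = 0.0883), with -0.65 within the shared slide, and did not overlap between the genotypes. For both genes the only transgenic sham array on that slide was the second, on which 37.3% of probes were well above background. The within-slide values therefore rest on the dimmest array. Ankrd1 differed by -0.44 ± 0.21 (adjusted p = 0.319), Ankrd2 by -0.87 ± 0.38 (adjusted p = 0.278) and the brighter Ankrd23 probe by -0.51 ± 0.21 (adjusted p = 0.241). Xirp1 differed by -0.35 ± 0.14 (adjusted p = 0.256). In all, 7 of 9 members were below 0, the exceptions being Xirp2 at 0.19 ± 0.26 and Fhl1 at 0.34 ± 0.22, and the members' median of -0.44 stood beside -0.05 over all probes. A lower reading was not particular to the members. Cardiomyocyte markers had a median of -0.34, with 12 of 12 below 0. Titin and Z-disc partners had a median of -0.29, with 27 of 36 below 0 and 9 above. The median was -0.07 for intermediate filament and costamere genes and 0.17 for SRF, MRTF and YAP genes. Wild-type sham arrays also had the lowest subtracted percentile. Without overlap and lower in transgenic hearts lay 4 of 9 members, Ankrd2, Ankrd23, Csrp3 and Fhl2, against 22.3% of all probes without overlap, 8.1% higher and 14.2% lower.

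After TAC, Ankrd1 was the only member called between genotypes, in a comparison in which 3.74% of all probes were called, 1.98% higher and 1.76% lower. Xirp1 differed by -0.55 ± 0.14 (adjusted p = 0.0672), Xirp2 by -0.86 ± 0.26 (adjusted p = 0.0913) and Ankrd2 by -1.24 ± 0.38 (adjusted p = 0.0962). The 2 Ankrd23 probes differed by -0.54 ± 0.21 (adjusted p = 0.157) and -0.55 ± 0.16 (adjusted p = 0.0842). Fhl1 differed by -0.58 ± 0.22 (adjusted p = 0.158), Nes by -0.61 ± 0.27 (adjusted p = 0.227) and Csrp3 by -0.31 ± 0.16 (adjusted p = 0.281). Fhl2 differed by less than its error, 0.01 ± 0.11 (95% interval -0.23 to 0.26, adjusted p = 0.963). In all, 8 of 9 members were below 0 in transgenic TAC hearts, and the median was -0.58 against 0.05 over all probes. Ankrd1, Ankrd2, Xirp1, Xirp2, Fhl1 and Nes, 6 of 9, were lower without overlap, against 33% of all probes without overlap, 19.3% higher and 13.7% lower. Without the second wild-type TAC array the Ankrd2 difference was -0.73. Within the shared slide the differences of Xirp1, Xirp2, Ankrd2, the brighter Ankrd23 probe, Fhl1 and Nes were -0.53, -0.64, -0.36, -0.97, -0.45 and -0.74, that of Fhl2 was 0.04, and that of Csrp3 turned to 0.09.

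**Figure D3:**
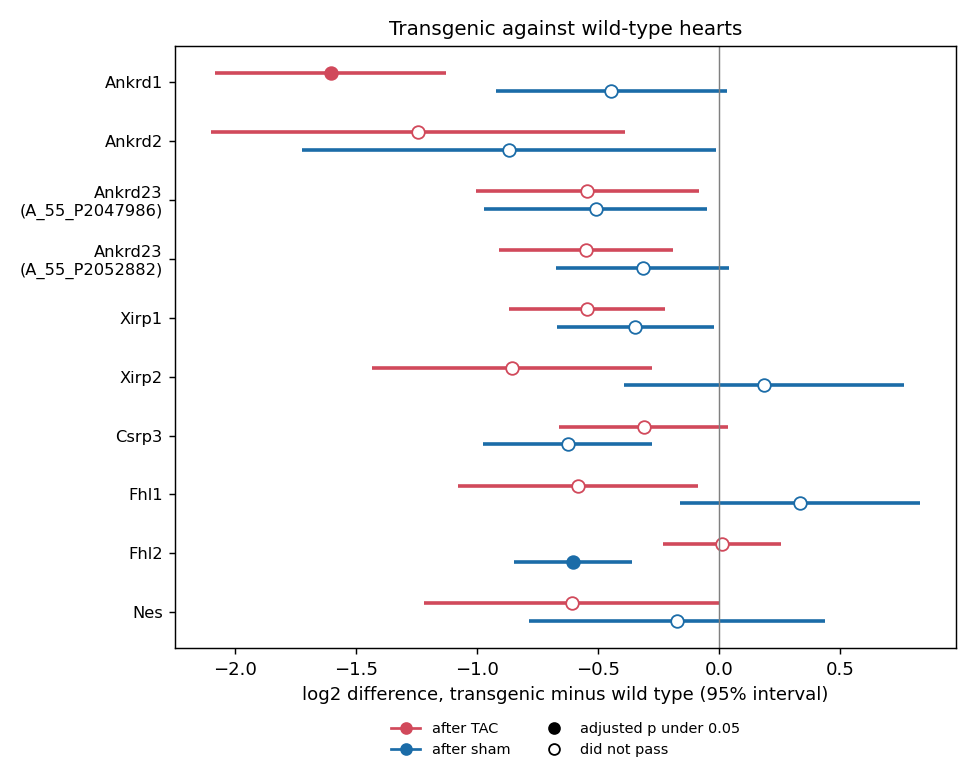
Log2 difference of transgenic minus wild-type hearts for each member's probes after TAC and after sham, with 95% intervals. Ankrd1 after TAC (-1.60) and Fhl2 after sham (-0.60) are the filled points with an adjusted p under 0.05.

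The response to TAC differed between the genotypes for 2 of the 9 members, in a test in which 6.94% of all probes were called, 4.16% higher and 2.78% lower. The Ankrd1 response was lower in transgenic than in wild-type hearts (-1.16 ± 0.30, 95% interval -1.83 to -0.48, adjusted p = 0.0493). The Fhl2 response was 0.62 ± 0.15 higher in transgenic than in wild-type hearts (95% interval 0.27 to 0.96, adjusted p = 0.0442). Both values are near the threshold: with 1 array left out in turn, Ankrd1 passed only without transgenic sham 3 (adjusted p 0.0373 to 0.109 over the 12 arrays), and Fhl2 passed in 0 of 12 (adjusted p 0.0507 to 0.107). The values for Xirp2 (-1.04 ± 0.37, adjusted p = 0.112) and Fhl1 (-0.92 ± 0.31, adjusted p = 0.103) did not pass, and neither did Nes (-0.44 ± 0.39, adjusted p = 0.525), Ankrd2 (-0.37 ± 0.54, adjusted p = 0.715), Csrp3 (0.31 ± 0.22, adjusted p = 0.414) and Xirp1 (-0.20 ± 0.20, adjusted p = 0.59).

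Paralogous members were also compared within each array, where the scaling of the array cancels, a comparison chosen after the data were seen. A ratio between probes has no meaning as a level, so its change is given, with a two-sided permutation test over 400 rearrangements of the arrays (smallest possible p 0.005) and adjustment over the 10 tests made on 5 pairs. For the average change, surgery labels were rearranged within each genotype. For the difference between the genotypes' changes, genotype labels were rearranged within each surgery. The latter test takes genotype to have no effect on the ratio at all, after sham or after TAC. The ratio of Fhl1 to Fhl2 changed by 0.19 after TAC in transgenic hearts and by 1.73 in wild-type hearts. The genotypes' changes differed by -1.53 (permutation p = 0.01, adjusted p = 0.05). After sham this ratio averaged -8.27 in transgenic and -9.21 in wild-type hearts, so that p does not test the difference in changes alone. The average change was 0.96 (permutation p = 0.025, adjusted p = 0.0833). Xirp2 over Xirp1 changed by 0.70 in transgenic hearts and by 1.54 in wild-type hearts, 1.12 on average (permutation p = 0.005, adjusted p = 0.05). Its changes differed between the genotypes by -0.84 (permutation p = 0.075, adjusted p = 0.15). Ankrd1 over the brighter Ankrd23 probe changed by -0.50 in transgenic hearts and by 0.62 in wild-type hearts. That is a difference of -1.12 (permutation p = 0.045, adjusted p = 0.112) and an average change of 0.06 (permutation p = 0.81). Under quantile or normexp processing and with each array left out, the Fhl1 to Fhl2 difference ran from -1.73 to -1.06, and that of Ankrd1 to Ankrd23 from -1.37 to -0.94. The changes of the other ratios, Ankrd1 to Ankrd2 and Ankrd2 to Ankrd23, differed between genotypes by -0.78 (permutation p = 0.29) and -0.34 (permutation p = 0.74). Their average changes were -0.20 (permutation p = 0.585) and 0.26 (permutation p = 0.565). With this smallest p, a single test among the 10 could reach an adjusted p of 0.05 but not fall below it, so these p-values are little guide and the sizes are given as a description.

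**Figure D4:**
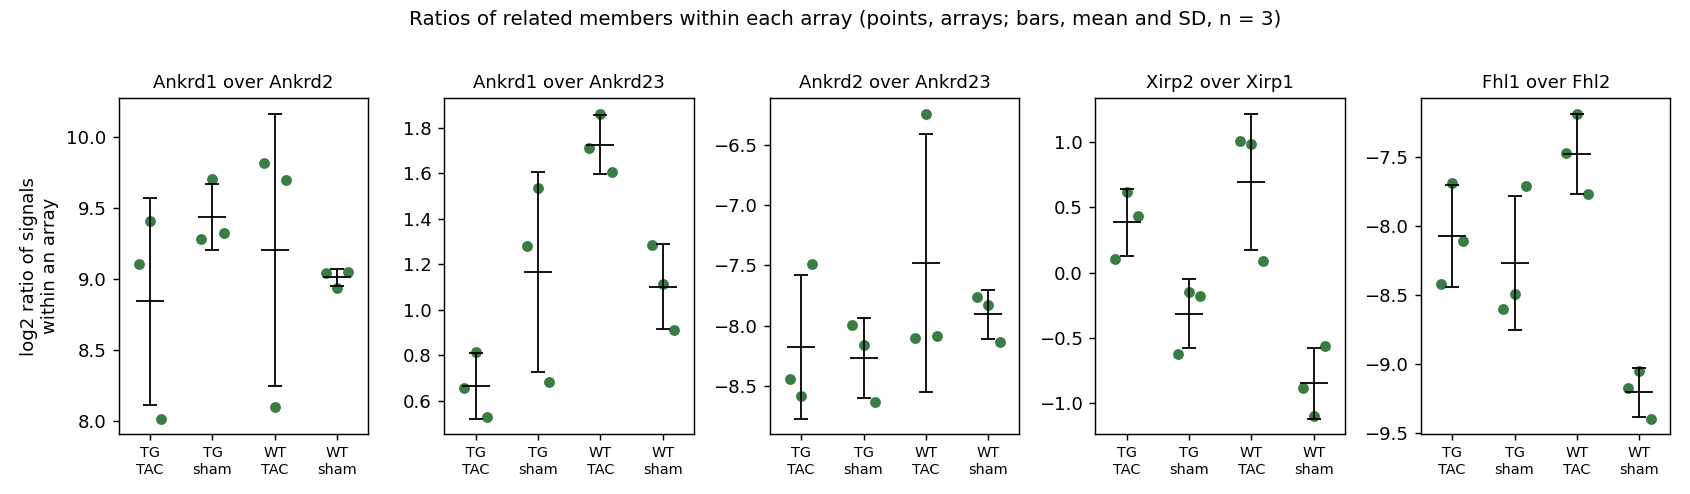
Log2 ratio of paralogous members within each array, by group, with a point for each array and the mean and SD of 3 arrays as bars; only changes between groups can be read. For Ankrd1 over Ankrd23 the transgenic TAC arrays lie at 0.53 to 0.82 and the wild-type TAC arrays at 1.61 to 1.86.

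Genes near the members in the same structures behaved in a mixed way after TAC in wild-type hearts. In that comparison 8.55% of all probes tested rose and 12.4% fell, and in transgenic hearts 0% were called. Of 36 titin and Z-disc partners 5 rose and 6 fell, with a median of -0.15, and 0 passed in transgenic hearts (median 0.14). Pdlim7, a PDZ and LIM protein of actin fibres, rose by 1.24 ± 0.22 (adjusted p = 0.00485) and Zyx, zyxin of focal adhesions, by 0.95 ± 0.17 (adjusted p = 0.00516). Smyd1, a muscle methyltransferase that acts on sarcomere assembly, was lower after TAC (-0.79 ± 0.14, adjusted p = 0.00569). Of 22 intermediate filament and costamere genes 6 rose and 1 fell, with a median of -0.07, against 0 called in transgenic hearts (median 0.04). Krt18, a keratin, rose by 2.99 ± 0.55 (adjusted p = 0.00612), Vim, the vimentin of non-muscle cells, by 1.25 ± 0.22 (adjusted p = 0.00535), and Tln1, which links integrins to actin, by 0.65 ± 0.10 (adjusted p = 0.00305). Sgca, a sarcoglycan of the membrane complex, fell by 0.83 on the log2 scale (adjusted p = 0.00379). The list of SRF, MRTF and YAP target genes also holds genes of these factors and their partners, which act downstream of strain. It had 10 risen and 2 fallen of 30 with a median of 0.63, and 0 called in transgenic hearts (median -0.02). Mrtfa and Wwtr1, regulators and not targets, are among the 10 risen. Ccn2, a secreted matrix protein of the YAP program, rose by 2.72 ± 0.38 (adjusted p = 0.00234), and Mrtfa, a cofactor of SRF, by 0.82 ± 0.13 (adjusted p = 0.00332). Tpm1, tropomyosin, fell by 0.73 (adjusted p = 0.00375). Of the listed genes 4 are on more than 1 list (Csrp1, Fhl3, Vcl and Zyx), and Acta2, Tagln and Cnn1 of the SRF list are also smooth muscle markers. The genotypes' responses differed for 5 of 36 Z-disc partners, 3 of 22 filament and costamere genes and 7 of 30 SRF, MRTF and YAP genes, against 6.94% of all probes in this test. Between genotypes after sham, Bag3, a chaperone partner at the Z-disc, was lower in transgenic hearts (-0.62 ± 0.09, adjusted p = 0.0168), as was Ldb3, the Z-disc protein cypher (-0.76 ± 0.15, adjusted p = 0.0491). In all, 2 of 36 Z-disc partners were called there, against 1.22% of all probes.

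**Figure D5:**
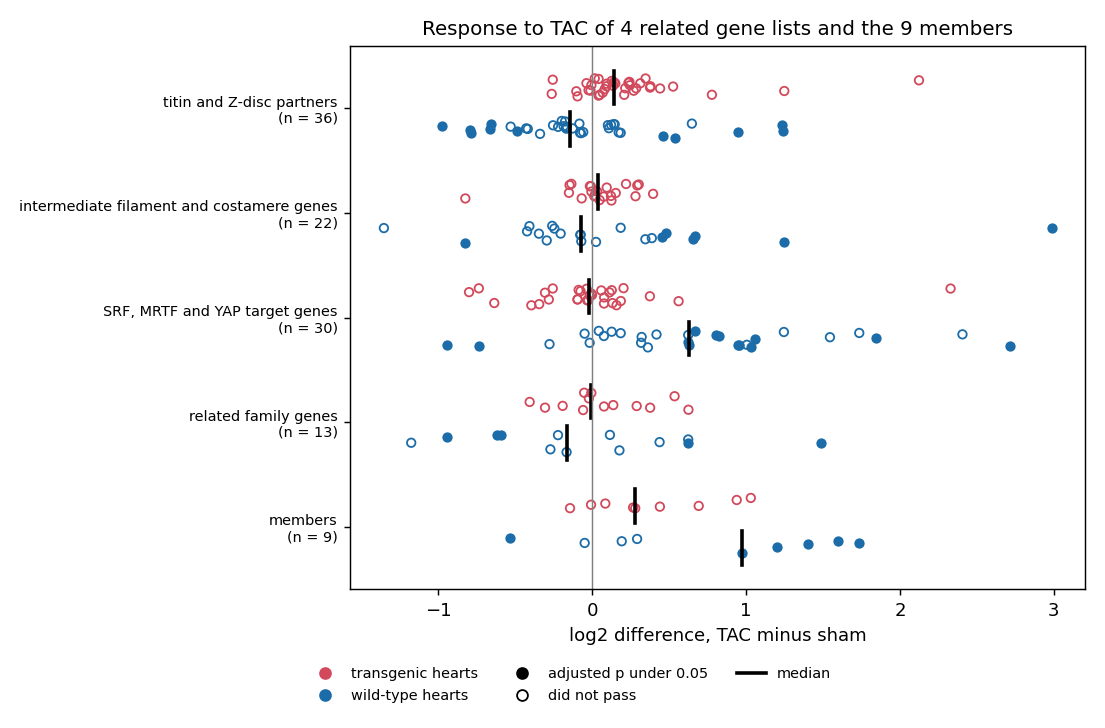
Log2 difference of TAC minus sham hearts for each tested gene of 4 related lists and for the 9 members, in transgenic and wild-type hearts, with the median as a bar and filled points for an adjusted p under 0.05. The members' medians are 0.28 in transgenic hearts and 0.97 in wild-type hearts, and the Z-disc partners' medians are 0.14 in transgenic hearts and -0.15 in wild-type hearts.

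Markers of several cell types moved with the groups. Beside the counts below, 8.55% of all probes tested rose and 12.4% fell after TAC in wild-type hearts. Summed cardiomyocyte markers were 2399 to 2909 in transgenic TAC, 2573 to 2877 in transgenic sham, 2162 to 2520 in wild-type TAC and 3530 to 3719 in wild-type sham hearts, and in wild-type hearts 7 of 12 fell and 0 rose after TAC (median -0.66). For Fhl2 and for this sum the wild-type sham hearts were higher than the other 9 arrays. Their arrays also had the lowest subtracted percentile, 8.97 to 9.24 on the log2 scale. On wild-type TAC arrays it was 9.88 to 9.95, so a marker with equal signal before scaling would read lower there. The part of this scaling in the fall of the cardiomyocyte markers was not tested. Fibroblast markers summed to 238 to 272 in transgenic TAC, 244 to 268 in transgenic sham, 395 to 507 in wild-type TAC and 147 to 231 in wild-type sham hearts, and 8 of 11 rose in wild-type hearts (median 1.93). The fibroblast sum was higher on each wild-type TAC array than on the other 9 arrays, like Ankrd1, Ankrd2, Xirp2, Fhl1 and the second Ankrd23 probe. The brighter Ankrd23 probe, Xirp1 and Nes also had their highest mean in wild-type TAC hearts, with overlap. The part of the cell types in these results was not tested. Atrial markers summed to 86.9 to 263 in transgenic TAC, 108 to 125 in transgenic sham, 324 to 394 in wild-type TAC and 39.2 to 63.5 in wild-type sham hearts, with Sln at background in both sham groups. Most of that sum is Nppa, the natriuretic peptide gene that the ventricle also induces under load. Of the 6 markers 4 lay above 0 after TAC in wild-type hearts, and 2 of these passed the test, Nppa (2.97) and Dkk3 (4.80). Sln differed by 0.82, Myl4 by 0.50, Myl7 by -0.30 and Bmp10 by -0.21, none of which passed.

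The nearest patterns over the 12 arrays were found among 15914 other named genes by the root mean square difference of the log2 levels relative to the wild-type sham mean, a description over shared arrays. For Ankrd1 the nearest was Chrna6 (0.31), then Clmp and Rab27b (0.37 each). Ankrd2 came nearest to Ccr2 (0.45), Rcan1 (0.48) and Amot (0.50), and Ankrd23 to Map3k14 (0.29), Creb3l2 (0.29) and Csad (0.30). For Xirp2 the nearest were Ccdc68 (0.32), Ropn1l (0.32) and Col4a1 (0.34), and for Fhl1 Trim30a (0.20), Ptgfrn (0.21) and Praf2 (0.21). Xirp1 came nearest to Golgb1 (0.08), Zrsr2 (0.12) and Asb1 (0.13), Csrp3 to Limch1 (0.14), Camk2d (0.14) and Poc1a (0.15), and Nes to Ogn (0.17), Myadm (0.18) and Dusp1 (0.18). Fhl2 lay 0.10 from Kcng2, Cebpzos and Crip2. Among the members themselves the closest pair was Xirp1 and Csrp3 (0.27) and the farthest Xirp2 and Fhl2 (1.42), with 1.06 between the 2 Xin genes, 1.17 between Fhl1 and Fhl2 and 0.44 between Ankrd1 and Ankrd23.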

How the data were processed

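Total RNA of the left ventricle was measured on 12 single-colour (Cy3) arrays, 3 in each of 4 groups, read from the labels. Per the file headers, the deposited array files hold spot intensity from Feature Extraction 10.7.3.1, background-subtracted and not scaled between arrays. The deposited table holds log2 values, and the submitters' processing notes name RMA without its role. Of 39429 probes, 26424 were named through their RefSeq accessions with a GRCm38.p6 gene table (20021 symbols), and 13005 were not. The array annotation names mm9, so no gene coordinates are given beyond the RefSeq promoter windows.

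The processed intensity of 43020 non-control spots was taken to log2, outlier spots were dropped, repeat spots averaged, and the 75th percentile of the array subtracted. Probes well above background on at least 3 arrays were tested with limma 3.58.1 in R 4.3.3 on 4 group means (residual spread over 8 degrees of freedom), a gene being counted by its brightest probe. The normexp alternative used the median spot signal, because the mean spot signal was not in the files. Further alternatives changed the scaling, filter, variance model, slide and replicate terms, and left out each array. The pipeline was tested on simulated data. No arrays held identical values. The number of arrays limits precision.

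All 9 members are named, with the 3 genes nearest to each in pattern and, from each list, up to 4 genes with the smallest p for TAC in wild-type hearts and 2 for genotype after sham. One gene that this rule names is not reported here. The members and lists were chosen with earlier results of these data known. The motif search read both strands of 300-base windows, 250 before and 50 after the start.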

Additional observations from a re-analysis of the deposited data

Results flagged for a closer look

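The responses of Ankrd1 and Fhl2 to TAC stood out because the test of the difference between the genotypes passed for both. The Ankrd1 response was lower in transgenic than in wild-type hearts, with a log2 difference of -1.16 (adjusted p = 0.0493). The Fhl2 response was higher in transgenic than in wild-type hearts, by 0.62 on the log2 scale (adjusted p = 0.0442). Among other settings Ankrd1 passed in 7 of 24 and Fhl2 in 4 of 24, with values from -1.78 to -0.93 for Ankrd1 and from 0.12 to 0.68 for Fhl2.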

How the results depend on the processing

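The rise of Ankrd1 after TAC in wild-type hearts passed in 25 of 25 alternatives (1.46 to 1.95), and in transgenic hearts 0 members passed in any alternative run. Of the 6 members called in wild-type hearts, 3 were called under normexp and 1, Ankrd1, with slide as a fixed block, where the other adjusted p-values reached 0.0835, and 5 to 6 with 1 array left out. The fall of Fhl2 turned to 0.011 under quantile normalization. Between genotypes after sham the 1 call became 0 under quantile normalization, median scaling, normexp, no filter, array weights, the compared groups alone, slide as a fixed block and the replicate block, 2 with the filter that needs all 12 arrays well above background or a trended robust variance, and 0 to 1 with 1 array left out. After TAC the 1 call became 2 under quantile normalization, 3 with the all-array filter, 3 with the trended variance, 6 with array weights, 0 with the compared groups alone, 0 with slide as a fixed block, and 1 to 2 with 1 array left out. The 2 interaction calls became 0 under quantile normalization, median scaling, normexp, no filter, slide as a fixed block and the replicate block, 1 with the deposited table or array weights, 4 with the all-array filter, and 0 to 1 with 1 array left out. The cause of these changes was not tested. Whether replicate numbers pair the arrays was not settled by their correlations. Same-numbered arrays of different groups correlated at -0.10 to 0.28 for number 1 and 0.03 to 0.23 for number 2. For number 3 the values were -0.23 to -0.08. Of 12 arrays 3 correlated best with their own number, and with the replicate block the wild-type TAC count was 5. Over all probes the 6370 calls in wild-type hearts became 1604 under normexp, 233 with slide as a fixed block and 12482 with array weights, and the median of all probes moved to 0.26 under normexp. Of the calls in wild-type hearts 40.8% were higher, against 51.7% under quantile normalization; of those between genotypes after sham 52.0% were higher, against 75.1%, and of interaction calls 60.0%, against 37.3%. Ankrd2, well above background on 11 of 12 arrays, had the largest standard error of the members' TAC differences, 0.38.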

Other observations

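Relatives of the members changed in both directions after TAC in wild-type hearts, 2 of 13 tested rising and 3 falling (median -0.17), with 0 called in transgenic hearts. Over all probes tested 8.55% rose and 12.4% fell in wild-type hearts. Csrp2, the smooth muscle relative of Csrp3, rose by 1.48 ± 0.25 (adjusted p = 0.0043 in limma) and differed by -1.52 between transgenic TAC and wild-type TAC hearts (adjusted p = 0.0183). Ankrd10 rose by 0.62 ± 0.12 (adjusted p = 0.00717). Crip2, a LIM protein of heart and vessels, was lower after TAC in wild-type hearts (-0.59 ± 0.10, adjusted p = 0.00419) and lower in transgenic sham hearts than in wild-type sham hearts (-0.54 ± 0.10, adjusted p = 0.0389), as was Fhl2. Lmo7 fell by 0.62 after TAC in wild-type hearts (adjusted p = 0.0137).

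Smooth muscle and pericyte markers summed to 43.2 to 58.8 in transgenic TAC, 62.3 to 76.8 in transgenic sham, 44.3 to 54.5 in wild-type TAC and 40.8 to 46.1 in wild-type sham hearts. The sum weighs bright markers most. After TAC in wild-type hearts 5 of the 10 markers rose and 1 fell (median 0.60), against 8.55% and 12.4% of all probes. Between genotypes after sham 0 of 10 passed the test, 7 lying above 0 and 3 below. There Acta2 differed by 1.64, but Cnn1 by 0.21, Tagln by 0.03 and Myh11 by -0.15. Macrophage and monocyte markers summed to 23.4 to 26.7 in transgenic TAC, 21.4 to 26.0 in transgenic sham, 22.6 to 32.5 in wild-type TAC and 18.4 to 23.6 in wild-type sham hearts. Schwann and nerve markers summed to 1.96 to 2.44 in transgenic TAC, 2.24 to 2.94 in transgenic sham, 1.81 to 3.87 in wild-type TAC and 2.02 to 2.22 in wild-type sham hearts.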
